A study of Mus musculus with 8 samples.

Results

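*Elmo1*, the gene deleted in this study, lies on mouse chromosome 13, and the expression of 8 genes around it was described across osteoclast cultures of both genotypes. These genes are *Aoah*, *Sugct*, *Mplkip*, *Lyst*, *Ero1lb*, *Gpr137b*, *Gpr137b-ps* and *Nid1*, out of 46517 genes in the deposited table. They were chosen by their place on the chromosome and with their genotype differences in these same libraries already known, so those differences are given here as a description, without a test. All 8 passed a filter of at least 10 normalized counts in at least 4 libraries, as did 14139 genes in all.

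The samples were osteoclast cultures from 4 *Elmo1*-/- mice, in which *Elmo1* is deleted in the whole animal, and from 4 *Elmo1*+/- mice, which keep 1 intact copy and served as controls (their sample names call them WT). All mice were 6 to 8 weeks old, and the study's methods describe its control animals as littermates of matched age and sex. The strain of these mice and the sex of each were not given in the sources used here. In every group, marrow cells from the femurs were first grown with medium conditioned by L929 cells, a fibroblast line that secretes macrophage colony-stimulating factor. The attached cells were then collected and plated with 50 ng/ml of GST-RANKL, the cytokine that drives osteoclast formation, for 7 days. Each mouse gave 1 library of 75 bp paired-end reads, and a library held 20905502 to 40846651 reads on genes. The protocols describe no sorting of the cells.

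Osteoclasts are giant cells that form by fusion of macrophage-lineage precursors and dissolve bone by secreting acid and proteases into a sealed space, for which they rely on lysosomes and lysosome-related vesicles. Genes that sit close together on a chromosome are inherited together, so that mice bred to carry a deletion also carry the DNA around it from the strain in which the deletion was made. In these mice a difference set by the lack of *Elmo1* and a difference set by linked DNA on chromosome 13 cannot be told apart.

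Libraries with numbers 3 and 4 differed broadly from those with numbers 1 and 2. The leading principal component of the tested genes held 62.3% of the variance. On it all 4 libraries numbered 1 or 2 lay below 0 and all 4 numbered 3 or 4 above 0. *Elmo1*-/- mouse 2 lay nearest to 0, at -6.03, against -52.3 to -23.1 for the other libraries numbered 1 or 2. The methods give 2 experiments with 2 mice per genotype in each but not which mice, and this split was first seen in the values of these libraries, so its tests describe the split and are no independent evidence of it. With the genotype as a term, limma called 2400 genes higher (17% of those tested) and 2203 lower (15.6%) in libraries 3 and 4 at an adjusted p under 0.05. All 11 osteoclast markers listed, among them *Acp5*, *Ctsk* and *Dcstamp*, were detected in every library and rose in libraries 3 and 4, by a median of 1.15 on the log2 scale against -0.01 for all tested genes. Their summed normalized count was 452772 to 694534 in libraries 1 and 2 and 1031880 to 1175860 in libraries 3 and 4. Of 6 macrophage markers, 3 (*Mrc1*, *Mertk* and *Cd14*) fell. Among listed markers of other cell types, the neutrophil gene *S100a8* and the B cell gene *Cd79b* fell, the dendritic cell genes *Zbtb46* and *Itgax* rose, and no stromal, endothelial or megakaryocyte marker was called. No marker of any of these lists was called by genotype. In whole cultures, fewer cells of a type and less RNA per cell cannot be told apart, and the part of osteoclast content in the differences between the sets was not tested.

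The deletion was visible in the data. *Elmo1*, an adaptor of the DOCK-family exchange factors that activate Rac, stood at 1528, 1423, 1769 and 1651 normalized counts in controls 1 to 4, against 274, 287, 316 and 291 in *Elmo1*-/- cultures 1 to 4. The *Elmo1*-/- level was 18.3% of the control level, and the fall of 2.44 on the log2 scale (SE 0.09, limma adjusted p = 8.4e-06) made it the sole gene called by genotype (0.00707% of those tested). At an unadjusted limma p under 0.05 there were 133 of 14139 tested genes, a smaller share than that threshold gives by chance. With the library set as a term there were 411, and with the mouse number as a block 389, also smaller shares.

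The 8 genes fall into 3 places in GRCm38. *Aoah* (chr13:20794113-21036617, plus strand) begins 185.8 kb beyond the end of *Elmo1* and is transcribed in the same direction. *Sugct* (chr13:16857472-17695553, minus strand) and *Mplkip* (chr13:17695192-17699748, plus strand) lie 2.40 and 2.39 Mb before *Elmo1*. The other 5 lie within a stretch of 1.21 Mb, namely *Ero1lb* (chr13:12565874-12611396, plus strand), *Gpr137b-ps* (chr13:12615057-12650388, minus strand), *Gpr137b* (chr13:13357620-13394014, minus strand), *Nid1* (chr13:13437551-13512269, plus strand) and *Lyst* (chr13:13590397-13778803, plus strand). Their distances from *Elmo1* run from 6.31 Mb for *Lyst* to 7.48 Mb for *Ero1lb*. The values are gene-level counts over annotated exons, so no exon, intron or UTR of these genes was measured on its own.

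For some of these genes the sequences bear on how far their counts can be separated. *Gpr137b-ps* is annotated as a transcribed pseudogene and is a near copy of *Gpr137b*. Over 1933 aligned transcript bases, 1914 were identical (99.0%), and over the 1155 coding bases of *Gpr137b* 5 differed. Of the 1081 windows of 75 bases in that coding sequence, 1007 aligned without a gap, and none of these held more than 1 difference while 62.8% held none. The other 74 spanned a gap and were not compared. The window below is shown as an example of how small the difference is over the length of a read, with the differing base in capitals (positions 782 to 856 of the *Gpr137b* coding sequence).
Gpr137b: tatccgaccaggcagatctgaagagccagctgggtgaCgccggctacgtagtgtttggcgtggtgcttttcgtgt
Gpr137b-ps: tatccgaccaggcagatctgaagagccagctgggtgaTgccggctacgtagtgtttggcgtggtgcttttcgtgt
Counted over all annotated transcripts, retained introns included, 21.4% of the distinct 75-base words of *Gpr137b* and 22.1% of those of *Gpr137b-ps* were shared between both genes, which left 4054 and 3892 words particular to each. Each word was taken alone, and the joint placement of both reads of a pair was not examined. How the authors' counting split reads from the shared part is not given in the sources used here, so the balance between these genes is uncertain. *Aoah* and *Lyst* shared no such word with another gene, and the share was 1.90% for *Sugct*, 2.21% for *Nid1*, 4.43% for *Mplkip* and 7.74% for *Ero1lb* (with the gene model *Gm18562*).

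*Sugct* and *Mplkip* are divergent neighbours whose annotated bodies overlap by 362 bp, and *Sugct* shared 67 words with *Mplkip*. Without a stated strand setting, reads from the overlap cannot be told apart. Their promoters (RefSeq, GRCm38.p6, 250 bases before to 50 bases after each start) are shown because both genes start from the same short stretch of DNA but had unlike levels and unlike differences, and capitals mark matches on either strand to TATAAA (the TATA box), CCAAT (the CCAAT box), GGGCGG (the GC box), GAGGAA (a core found in PU.1 sites) and TGANTCA (the AP-1 letters).
Sugct, chr13:17694716-17695015, minus strand: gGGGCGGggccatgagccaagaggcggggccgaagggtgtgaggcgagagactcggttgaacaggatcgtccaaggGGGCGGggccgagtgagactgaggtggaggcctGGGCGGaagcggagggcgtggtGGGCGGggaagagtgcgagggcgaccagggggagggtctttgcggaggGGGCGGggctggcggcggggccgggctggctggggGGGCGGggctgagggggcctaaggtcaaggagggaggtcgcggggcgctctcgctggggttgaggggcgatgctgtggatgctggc
Mplkip, chr13:17695163-17695462, plus strand: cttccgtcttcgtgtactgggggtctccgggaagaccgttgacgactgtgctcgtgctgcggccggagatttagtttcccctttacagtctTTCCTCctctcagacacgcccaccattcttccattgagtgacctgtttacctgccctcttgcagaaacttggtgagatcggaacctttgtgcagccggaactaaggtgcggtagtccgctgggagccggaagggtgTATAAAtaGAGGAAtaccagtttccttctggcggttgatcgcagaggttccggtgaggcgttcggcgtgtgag
The *Sugct* window was 73.7% G or C and held 6 matches to GGGCGG, a letter run found in 35.7% of 32851 promoters of that length. The *Mplkip* window was 55.3% G or C and held 1 match to TATAAA (13.6% of promoters) and 2 to GAGGAA (28.3%). The windows did not overlap and were 147 bases apart. Their RefSeq starts were 648 bases apart and both lay inside the GENCODE bodies of these genes. RefSeq and GENCODE thus place the starts differently, and the overlap of 362 bp is that of the GENCODE bodies. Promoters of 6 of the 8 genes were in the reference table, *Ero1lb* under the symbol *Ero1b*. Matches describe the letters in these windows and no binding.

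Levels were compared per kb of exon, on the linear scale of normalized counts, in *Elmo1*+/- cultures (mean ± SD, n = 4). *Gpr137b* was highest, at 3013 ± 626, followed by *Aoah* at 1599 ± 394, and these did not overlap in any control library. *Gpr137b-ps* came next at 393 ± 283, with a range of 4.82 to 628 that spanned that of *Lyst* at 144 ± 11.3. *Ero1lb* at 86.0 ± 22.9 and *Mplkip* at 79.3 ± 10.7 overlapped each other, as did *Nid1* at 11.7 ± 4.79 and *Sugct* at 11.7 ± 6.26. In *Elmo1*-/- cultures the mean of *Gpr137b-ps*, at 11.6 ± 6.58, was between *Ero1lb* at 54.9 ± 7.88 and *Nid1* at 8.41 ± 2.57. The values of *Gpr137b-ps* and *Nid1* overlapped there, and *Sugct* was lowest at 2.52 ± 1.41. In mean level per kb over all libraries of both genotypes, *Gpr137b* was above 96.0% and *Sugct* above 7.42% of the tested genes.

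**Figure D1:**
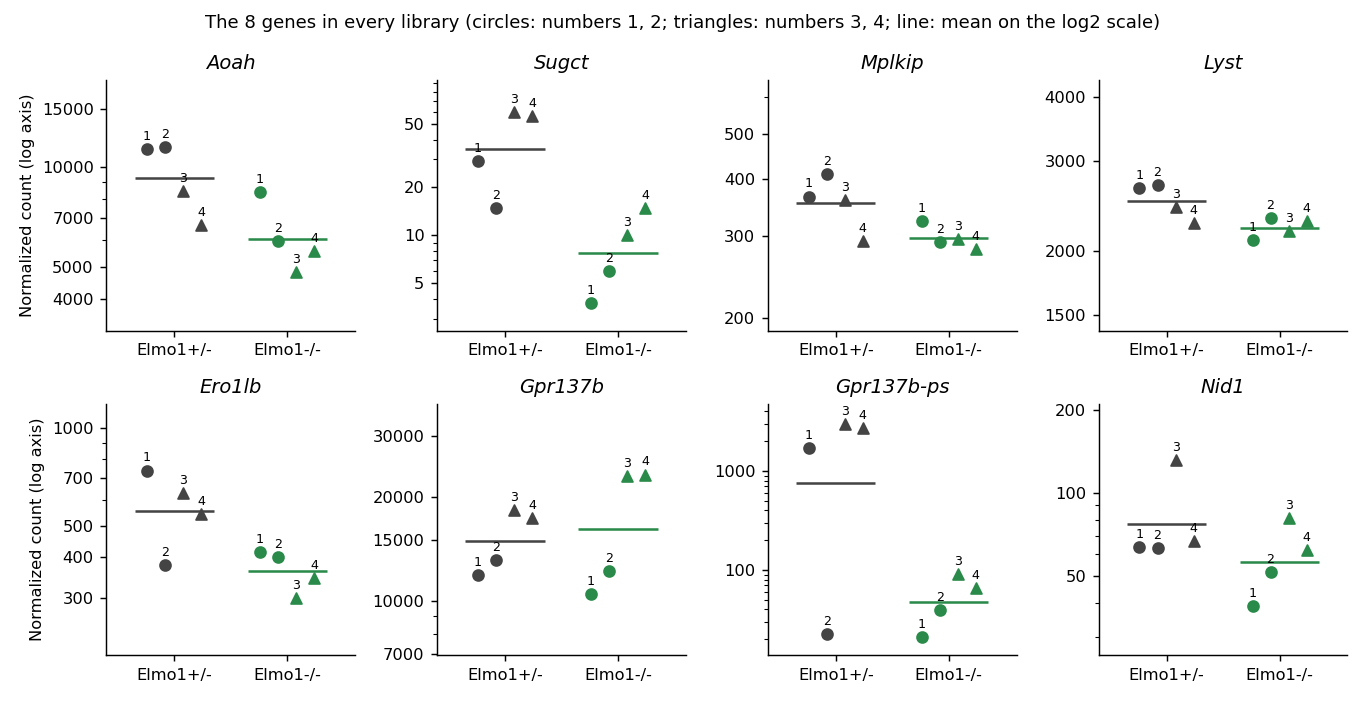
Normalized counts (log axes) of the 8 genes in each library of *Elmo1*+/- (grey) and *Elmo1*-/- (green) osteoclasts, numbered by mouse, with circles for numbers 1 and 2, triangles for numbers 3 and 4 and a line at the mean on the log2 scale. Every *Sugct* value of *Elmo1*-/- cultures was below every control value, whereas for *Gpr137b-ps* control mouse 2, at 22.7, sat among the *Elmo1*-/- values.

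Of the lysosomal genes, *Gpr137b* (ENSMUSG00000021306) encodes a lysosomal membrane protein linked to mTORC1 signalling. *Gpr137b* stood at 11827, 13132, 18268 and 17346 normalized counts in controls 1 to 4, against 10442, 12211, 22926 and 23204 in *Elmo1*-/- cultures 1 to 4. All libraries 3 and 4 were above all libraries 1 and 2 in both genotypes, as for 18.1% of tested genes, while the genotypes overlapped. The difference between the sets was 0.77 on the log2 scale (SE 0.11, limma adjusted p = 0.00114, higher in 4 of 4 libraries), and adjusted p-values lay between 1.9e-04 and 0.00735 when each mouse was left out. *Elmo1*-/- cultures differed from controls by 0.12 ± 0.28 (SE) on the log2 scale. Within libraries 1 and 2 the genotype difference was -0.14, within libraries 3 and 4 it was 0.37, and both *Elmo1*-/- libraries 3 and 4 were above both controls of that set. The difference between these differences was 0.52 (SE 0.15, limma adjusted p = 1.00), and limma called no gene for it (0% of those tested). It rests on the libraries kept, since without *Elmo1*-/- mouse 2 it was 0.63 with an adjusted p of 0.0103.

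*Gpr137b-ps* (ENSMUSG00000097715) had the lowest of all genotype log2 differences among the tested genes. *Gpr137b-ps* stood at 1718, 22.7, 2963 and 2716 normalized counts in controls 1 to 4, against 20.8, 39.5, 91.8 and 66.1 in *Elmo1*-/- cultures 1 to 4. Control mice 1, 3 and 4 were high, whereas control mouse 2 was as low as the *Elmo1*-/- mice, so the groups overlapped. The lowest of the 3 high controls was 18.7-fold above the highest *Elmo1*-/- value. The genotype difference was -3.97 ± 1.43 (SE) on the log2 scale with all libraries and -5.63 without control mouse 2. Between the library sets it differed by 2.61 (SE 1.42, limma adjusted p = 0.208), but by 1.13 (adjusted p = 0.0140) without control mouse 2, so that this library decided the call.

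The share of *Gpr137b-ps* in the summed count of the pair was 12.7% in control mouse 1 (95% Wilson interval 12.2 to 13.2%), 14.0% in mouse 3 (13.4 to 14.5%) and 13.5% in mouse 4 (13.1 to 14.0%). In control mouse 2 it was 0.173% (0.115 to 0.259%), and in the *Elmo1*-/- mice it was 0.199 to 0.399%. These intervals cover counting error alone. In control mouse 2, 23 reads were assigned to *Gpr137b-ps* and 13282 to *Gpr137b*. The sum of both genes was 16998 ± 4243 (SD, n = 4) in controls and 17250 ± 6845 in *Elmo1*-/- cultures, a log2 difference of -0.04. Summed, the pair had a genotype difference of -0.24 within libraries 1 and 2 and 0.17 within libraries 3 and 4.

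**Figure D2:**
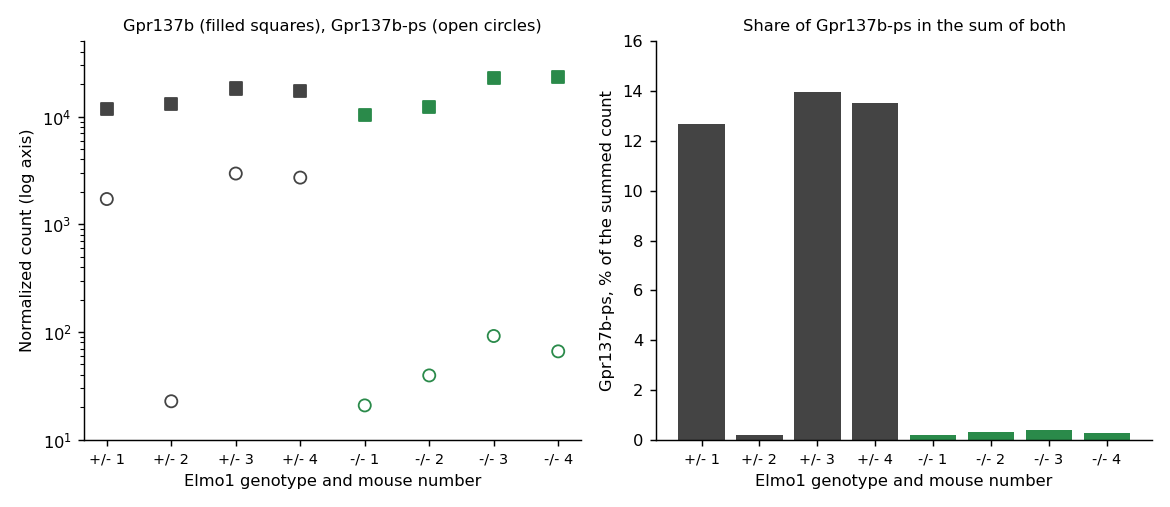
Left, normalized counts (log axis) of *Gpr137b* (filled squares) and its pseudogene *Gpr137b-ps* (open circles) in each *Elmo1*+/- (grey) and *Elmo1*-/- (green) culture; right, *Gpr137b-ps* as a percent of the summed count of both genes. The share was 12.7 to 14.0% in control mice 1, 3 and 4 and at most 0.399% in the other 5 cultures.

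*Lyst* (ENSMUSG00000019726) encodes a large BEACH-domain protein of lysosomal trafficking, the gene of Chediak-Higashi syndrome and of the beige mouse. *Lyst* stood at 2650, 2696, 2439 and 2270 normalized counts in controls 1 to 4, against 2102, 2319, 2193 and 2287 in *Elmo1*-/- cultures 1 to 4. Control mice 1 to 3 were above every *Elmo1*-/- culture and control mouse 4 was not. By genotype it differed by -0.17 ± 0.07 (SE) on the log2 scale, with -0.28 within libraries 1 and 2 and -0.07 within libraries 3 and 4. The library sets differed by -0.08 (SE 0.07, limma adjusted p = 0.357).

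Of the enzymes, *Aoah* (ENSMUSG00000021322) encodes acyloxyacyl hydrolase, which removes fatty acyl chains from bacterial lipopolysaccharide and so inactivates it. *Aoah* stood at 11311, 11472, 8454 and 6660 normalized counts in controls 1 to 4, against 8415, 5965, 4807 and 5558 in *Elmo1*-/- cultures 1 to 4. The groups overlapped, because *Elmo1*-/- mouse 1 was above control mouse 4, but within each set both *Elmo1*-/- cultures were below both controls. The genotype difference was -0.61 ± 0.22 (SE) on the log2 scale, or -0.69 within libraries 1 and 2 and -0.54 within libraries 3 and 4. *Aoah* also fell by 0.53 from libraries 1 and 2 to libraries 3 and 4 (SE 0.12, limma adjusted p = 0.00825), opposite to the osteoclast markers. That difference was called in every run that left out a mouse, with adjusted p-values of 2.4e-04 to 0.0318.

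*Sugct* (ENSMUSG00000055137) encodes succinyl-CoA:glutarate-CoA transferase, a mitochondrial enzyme of glutarate breakdown. *Sugct* stood at 29.4, 14.8, 59.4 and 56.2 normalized counts in controls 1 to 4, against 3.78, 5.99, 10.0 and 14.8 in *Elmo1*-/- cultures 1 to 4. It was the sole gene among the 8 whose genotypes did not overlap, as for the 0.439% of tested genes with every *Elmo1*-/- value below every control value (0.502% lay the other way), but control mouse 2 and *Elmo1*-/- mouse 4 both rounded to 14.8, from 15 and 19 reads. With 4 to 59 reads in a library, its reads were the fewest of the 8. *Elmo1*-/- cultures differed from controls by -2.04 ± 0.52 (SE) on the log2 scale, with -1.92 within libraries 1 and 2 and -2.16 within libraries 3 and 4. *Sugct* rose by 1.30 in libraries 3 and 4 (SE 0.28, limma adjusted p = 0.00723), with 1.42 in controls and 1.19 in *Elmo1*-/- cultures. Adjusted p-values for the sets lay between 0.00195 and 0.0298 when each mouse was left out.

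*Ero1lb* (ENSMUSG00000057069) encodes an oxidase of the endoplasmic reticulum that passes disulfide bonds to protein disulfide isomerase, and it lies tail to tail with *Gpr137b-ps* at a distance of 3.66 kb. *Ero1lb* stood at 738, 378, 629 and 543 normalized counts in controls 1 to 4, against 414, 401, 300.5 and 346 in *Elmo1*-/- cultures 1 to 4. Control mice 1, 3 and 4 were above every *Elmo1*-/- culture, and control mouse 2 was below 2 of them. The genotype difference was -0.61 ± 0.20 (SE) on the log2 scale and -0.80 without control mouse 2, with -0.37 within libraries 1 and 2 and -0.86 within libraries 3 and 4. Between the sets *Ero1lb* differed by -0.10 (SE 0.20, limma adjusted p = 0.735). Without control mouse 2 that difference was -0.34 (adjusted p = 0.0363), and without control mouse 1 it turned to 0.049.

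*Mplkip* (ENSMUSG00000012429) encodes a nuclear protein, TTDN1, which is mutated in a non-photosensitive form of trichothiodystrophy. *Mplkip* stood at 366, 409, 359 and 293 normalized counts in controls 1 to 4, against 324, 292, 296 and 282 in *Elmo1*-/- cultures 1 to 4. Control mice 1 to 3 were above every *Elmo1*-/- culture and control mouse 4 fell among them. By genotype *Mplkip* differed by -0.25 ± 0.11 (SE) on the log2 scale, far smaller in size than that of its overlapping neighbour *Sugct*. The sets differed by -0.17 (SE 0.10, limma adjusted p = 0.183), opposite in sign to *Sugct*.

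*Nid1* (ENSMUSG00000005397) encodes nidogen, which links laminin and collagen IV in basement membranes. *Nid1* stood at 63.5, 63.3, 131 and 66.6 normalized counts in controls 1 to 4, against 38.8, 51.5, 81.0 and 62.2 in *Elmo1*-/- cultures 1 to 4. Control mouse 3 was high, and the other controls lay within 63.3 to 66.6. The genotype difference was -0.44 ± 0.30 (SE) on the log2 scale, and it was -0.19 without control mouse 3. Between the sets *Nid1* differed by 0.60 (SE 0.21, limma adjusted p = 0.0519). It passed the threshold with TMM scaling (0.0492), edgeR (0.0444) and DESeq2 (0.0323), without control mouse 4 (0.0162) and without *Elmo1*-/- mouse 2 (0.0287). It did not pass in the other 4 settings or in the other 6 runs that left out a mouse. Without control mouse 3 the set difference was 0.42 (limma adjusted p = 0.154).

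Across the 8 genes, 7 had a genotype difference below 0 and 1, *Gpr137b*, above 0, against 51.6% of all tested genes below 0. The sources used here do not state which mice form a pair, and the pairs counted here are by mouse number alone. In these pairs *Elmo1*-/- was lower in 4 of 4 for *Aoah*, *Sugct*, *Mplkip* and *Nid1*. It was lower in 3 of 4 for *Lyst*, *Ero1lb* and *Gpr137b-ps* and in 2 of 4 for *Gpr137b*. With the number as a block the SE of the genotype difference was 0.11 for *Aoah*, 0.30 for *Sugct*, 0.17 for *Nid1* and 0.11 for *Gpr137b*. Without the block these were 0.22, 0.52, 0.30 and 0.28, and for *Gpr137b-ps* the SE was 1.55 with it and 1.43 without. With the library set as a term and no pairing, the SE of the genotype difference was 0.12, 0.28, 0.21 and 0.11 in the same order. Much of the fall in SE was thus also seen without pairing. Since these genes were selected on that contrast, nothing is read from these counts. By library set, limma called 2 genes higher (*Sugct* and *Gpr137b*) and 1 lower (*Aoah*) of 8, against the 17% and 15.6% of all tested genes given above. All libraries 3 and 4 lay apart from all libraries 1 and 2 for *Gpr137b* alone, and 15.8% of tested genes lay apart with libraries 3 and 4 below. The difference of the genotype effect between sets was called by limma for none of the 8, with adjusted p-values of 1.00.

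**Figure D3:**
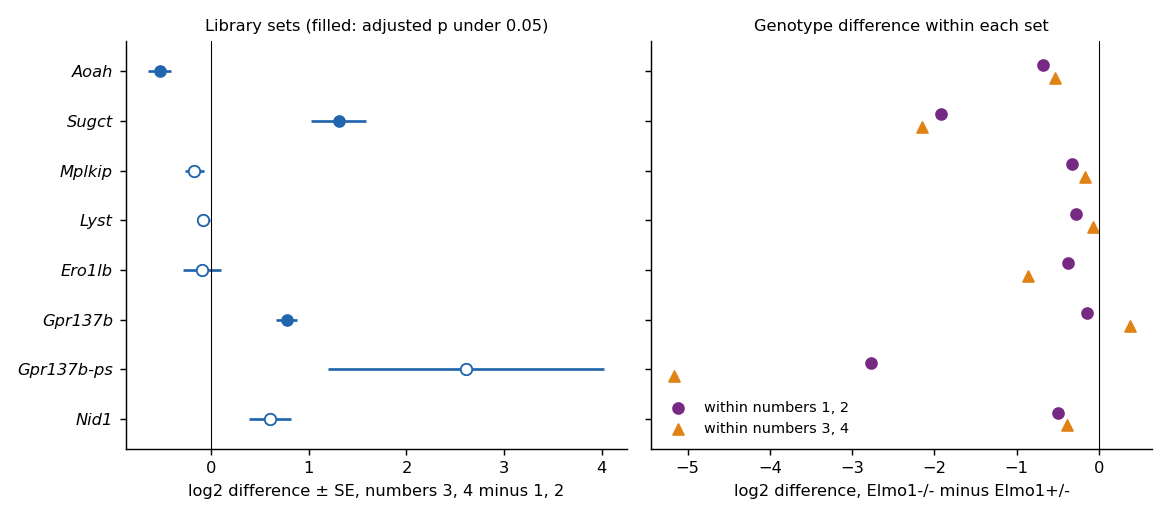
Left, log2 difference of each gene between libraries numbered 3 and 4 and those numbered 1 and 2, ± SE, from the limma fit with genotype as a term (filled, adjusted p under 0.05); right, log2 difference between *Elmo1*-/- and *Elmo1*+/- within each set. *Sugct* and *Gpr137b* rose and *Aoah* fell between sets, and *Gpr137b* was the sole gene whose genotype difference had opposite signs in the sets (-0.14 and 0.37).

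Most other tested genes around *Elmo1* lay close to 0. The 8 were set apart with their genotype differences known, so their contrast with the rest was shaped by that choice. Of 399 annotated genes of the table within 10 Mb of *Elmo1*, 68 were tested, and the 60 outside the 8 had a median genotype difference of -0.0015 on the log2 scale, with a range of -1.36 to 0.38. Of these 60, 50 were within 0.2 of 0 (83.3%), against 86.3% of all tested genes. Between *Elmo1* and *Mplkip*, 9 genes were tested, with a median of -0.0083 and a range of -0.35 to 0.19. The nearest of these to *Mplkip* was *Cdk13*, a cyclin-dependent kinase gene 10.6 kb beyond it, which differed by -0.04 ± 0.08 (SE), followed by the small GTPase gene *Rala* (-0.06 ± 0.09), *Yae1d1* (-0.0083 ± 0.25) and *Vdac3-ps1* (0.0030 ± 0.066). Between *Ero1lb* and *Lyst*, the other tested genes were *Prl2c2* (-0.03 ± 0.35) and *Gm2423* (-0.04 ± 0.09). No other gene was tested between *Elmo1* and *Aoah*. On the outer sides, *Trim27*, 142.8 kb beyond *Aoah*, differed by 0.06 ± 0.10, *Edaradd*, 45.4 kb before *Ero1lb*, by 0.33 ± 0.26, *Gng4*, 5.26 kb beyond *Lyst*, by -0.08 ± 0.80, and *Inhba*, the activin subunit gene nearest to the far end of *Sugct*, by 0.17 ± 0.32. Among all of these genes, limma called none by genotype.

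The largest differences among the other 60 were those of *Hist1h1d* (-1.36 ± 0.68, SE), *Hist1h2bg* (-0.76 ± 0.43) and *Hist1h1c* (-0.56 ± 0.21), histone genes that lie 2.94 to 3.13 Mb beyond *Elmo1*, followed by the gene model *Gm11349* (-0.53 ± 0.42) and *Zkscan8*, a zinc finger gene (0.38 ± 0.19). None was called by limma, and none had genotypes that did not overlap. *Hist1h1d* and *Hist1h2bg* differed by more in size than *Aoah* (-0.61 ± 0.22), and *Hist1h1c* by more than *Nid1* (-0.44 ± 0.30).

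**Figure D4:**
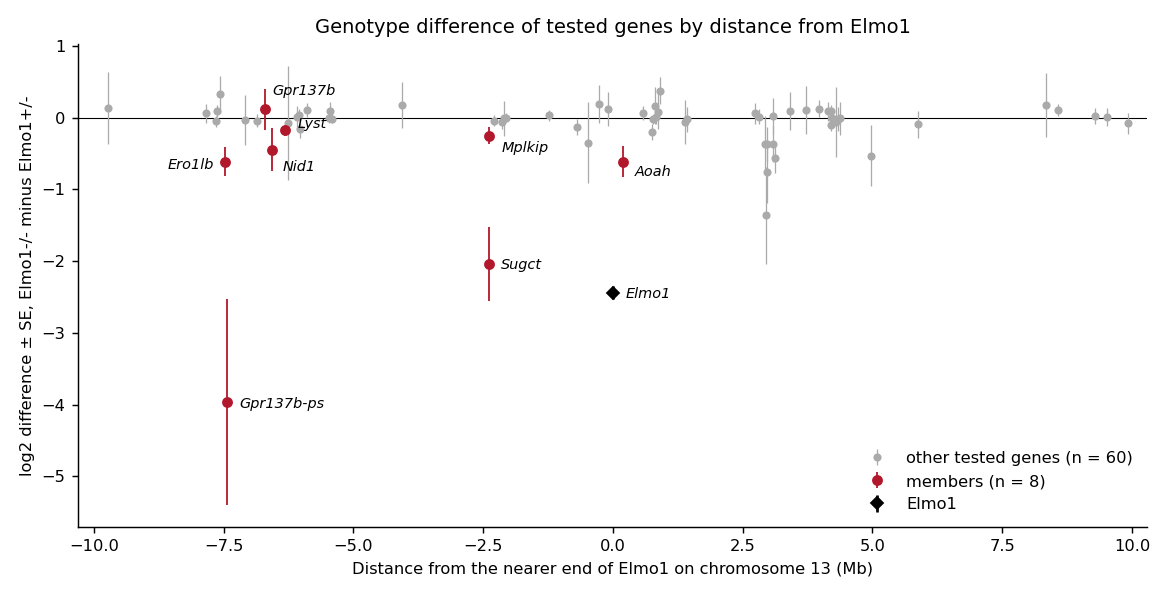
Log2 difference ± SE between *Elmo1*-/- and *Elmo1*+/- cultures for each tested gene within 10 Mb of *Elmo1*, by distance from the nearer end of *Elmo1* (negative, at lower coordinates). The 8 described genes are in red, the other 60 in grey and *Elmo1* in black; *Gpr137b-ps* at -3.97 and *Sugct* at -2.04 stand lowest beside *Elmo1* at -2.44.

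Genes that share a pathway or family with the 8 were listed by function. Of 61 listed, 53 were tested and none was called by genotype (limma, smallest adjusted p = 1.00), with a median difference of -0.02 and a range of -0.35 to 0.12 on the log2 scale. By library set, 10 rose (18.9%) and 13 fell (24.5%), with a median of -0.05, against 17% and 15.6% of all tested genes. The counts of the single lists below are to be read against the same shares, and nothing particular to a list is read from them. The member with the lowest genotype difference was *Ero1l*, the paralogue of *Ero1lb*, at -0.35 ± 0.23 (SE), with 8968 ± 2442 normalized counts (SD, n = 4) in controls and 6926 ± 1612 in *Elmo1*-/- cultures.

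Among lipopolysaccharide-handling genes listed with *Aoah*, 6 of 7 were tested and 2 fell in libraries 3 and 4, the co-receptor gene *Cd14* by 0.30 (SE 0.08, limma adjusted p = 0.0153) and the receptor gene *Tlr4* by 0.34 (SE 0.09, adjusted p = 0.0207). Of 7 tested folding genes listed with *Ero1lb*, 4 fell (*Pdia3*, *Pdia4*, *Pdia6* and *Prdx4*), by 0.23 to 0.34. Of 6 tested genes of lysine and glutarate breakdown, 3 rose in libraries 3 and 4, namely *Aldh7a1* by 0.22 (SE 0.06, adjusted p = 0.0212), *Acat1* by 0.48 (SE 0.08, adjusted p = 0.00238) and *Etfdh* by 0.56 (SE 0.09, adjusted p = 0.00171).

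Of 8 tested genes listed with *Gpr137b*, 1 rose, *Rragd*, a Rag GTPase of the lysosomal mTORC1 switch, by 1.33 (SE 0.10, limma adjusted p = 5.5e-04), while the paralogue *Gpr137* differed by -0.10 (SE 0.08, adjusted p = 0.341) and *Gpr137c* did not pass the filter. Of 13 tested BEACH and lysosome-related organelle genes listed with *Lyst*, 3 rose and 4 fell. The largest were *Nbea* (1.32, SE 0.20, adjusted p = 0.00152) and *Rab38* (1.22, SE 0.15, adjusted p = 9.9e-04), and the BEACH gene *Nbeal2* fell by 0.55 (SE 0.09, adjusted p = 0.00198). Of 8 tested basement membrane genes listed with *Nid1*, 2 rose (*Lama5* and *Hspg2*) and 3 fell, among them its paralogue *Nid2* (-0.86, SE 0.18, adjusted p = 0.00572). Of 5 tested genes listed with *Mplkip*, the TFIIE gene *Gtf2e2* rose by 0.40 (SE 0.08, adjusted p = 0.00595).

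Across the 8 libraries, which share genotype and set, the gene with the profile most like each of the 8 was found by Pearson's r of log2 values over all other tested genes. For *Gpr137b* it was *Atp2b4* (0.99), a plasma membrane calcium pump gene, and 690 genes exceeded 0.9. For *Gpr137b-ps* it was *Gm5510* (0.95), with 9 genes above 0.9, and for *Ero1lb* it was *Tnfaip1* (0.94), with 3. For *Aoah* it was *4930404N11Rik* (0.97), for *Sugct* *Gm9105* (0.96), for *Mplkip* *Klk8* (0.97), for *Lyst* *Kdm3a* (0.93) and for *Nid1* *Atp5s* (0.98). None of these 8 lies on chromosome 13, and with so many genes and 8 points such values are a description.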

How the data were processed

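RNAseq was measured in cultures from 8 mice, 4 per genotype, grouped by the genotype label. Per the submitters' processing notes, FastQC, STAR, featureCounts and DESeq2 were used; versions, strand setting, genome build and annotation were not given in the sources used here. Per gene, the deposited table gives a normalized signal: the authors' read counts after division by a DESeq2 size factor of each library. The authors' 6 comparison columns (mean, log2 fold change, its error, statistic, p-value and adjusted p-value) were not used. In units of the smallest step of its library, 100% of values were whole reads to within 0.01 of a read, and totals ran from 20905502 to 40846651 reads, so a value below 10 rests on few reads.

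Identifiers were matched to GENCODE mouse release 21 (GRCm38) for symbols and positions (46005 of 46517 matched). Log2(normalized count + 1) was fitted with limma 3.58.1 (R 4.3.3, trend and robust moderation) where a gene reached 10 in at least 4 libraries, with p-values adjusted over all 14139 such genes by the Benjamini-Hochberg method and a threshold of 0.05. A fold change on this scale understates the change of low genes. Contrasts were *Elmo1*-/- against *Elmo1*+/-, libraries 3 and 4 against 1 and 2 with genotype as a term, and their interaction. The mice are separate animals. Alternatives were TMM scaling, no filter, a minimum of 50, pseudocounts of 0.5 and 8, edgeR 4.0.16 and DESeq2 1.42.0 on the recovered reads, leaving out each mouse and, for genotype, the replicate number as a block, the set as a term and each set alone. Each contrast was tested with limma and edgeR on simulated data. For genotype and interaction these data held no broad difference between the library sets, unlike the libraries here. For the set contrast they held one in far fewer genes than the 4603 called between the sets here. That outcome therefore does not carry over to these libraries. Libraries with the same number deviated together from their genotype means in all 4 pairs (r from 0.16 to 0.70). For other numbers of the same set r was 0.03 to 0.69, so these values do not tell pairing by number from the shared set. The numbers were taken to pair the libraries only in the counts by pair and in the fit with the number as a block.

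The 8 genes, the gene lists, the windows and the split by library number were chosen with earlier results of these data known. Other genes named were *Elmo1*, the 6 tested genes between the described genes that lie nearest to one of them, the 5 largest differences within 10 Mb, called genes and paralogues of the lists, the genes with the most alike profile, and, chosen after the values were seen, the neighbours on the outer sides. The 75-base words came from the GENCODE transcripts.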

Additional observations from a re-analysis of the deposited data

Results flagged for a closer look

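In 18 groups of 4 libraries (8 genes and *Elmo1* in 2 genotypes), 2 values stood apart from the other 3 by a larger share of the group's range on the log2 scale than Dixon's 95% critical value for 4 samples, where chance gives about 1 in 20 groups (0.9 of 18). *Gpr137b-ps* in *Elmo1*+/- mouse 2, at 22.7 normalized counts, was separated by 0.887 of the range from 1718, 2716 and 2963 in the other controls. *Nid1* in *Elmo1*+/- mouse 3, at 131, was separated by 0.929 of the range from 63.3, 63.5 and 66.6 in the other controls.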

How the results depend on the processing

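The number of genes called by genotype was 1, and it was 2 with DESeq2, 2 in libraries 3 and 4 alone and 1 to 2 when each mouse was left out, with 2 without *Elmo1*+/- mouse 2. With the replicate number as a block (a paired fit with replicate block) it was 1, no call changed, and the 8 genotype differences kept their values. The number called between library sets was 4603, and 2861 to 6897 when each mouse was left out; 5 of these 8 runs moved it by over 1.5 times (those without *Elmo1*+/- mouse 1, 2 or 3 or *Elmo1*-/- mouse 3 or 4). The number called for the difference of genotype effects between sets was 0, and it was 14 with DESeq2 and 0 to 239 when each mouse was left out, where 181 came from leaving out *Elmo1*-/- mouse 1 and 239 from leaving out *Elmo1*-/- mouse 2. The cause was not tested.

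The set differences of *Aoah*, *Sugct* and *Gpr137b* kept their direction and their call under every alternative run. *Sugct* was not tested at a minimum of 50. The genotype difference of *Gpr137b* had the opposite sign in libraries 1 and 2 alone (-0.14), without *Elmo1*-/- mouse 3 (-0.05) and without *Elmo1*-/- mouse 4 (-0.06). Some differences that were not called turned direction when a mouse was left out, and the turned values were not called either. Over these runs the set difference of *Ero1lb* ran from -0.34 to 0.049, and the interaction ran from -0.10 to 0.40 for *Aoah*, from -0.70 to 0.24 for *Sugct*, from -5.49 to 0.69 for *Gpr137b-ps* and from -0.38 to 0.58 for *Nid1*. The runs that turned it were those without *Elmo1*+/- mouse 4 or *Elmo1*-/- mouse 2 for *Aoah* (-0.025 and -0.10), *Elmo1*+/- mouse 2 or *Elmo1*-/- mouse 2 or 3 for *Sugct* (0.24, 0.042 and 0.028), *Elmo1*+/- mouse 2 for *Gpr137b-ps* and *Elmo1*+/- mouse 4 or *Elmo1*-/- mouse 1 or 3 for *Nid1* (-0.38, -0.097 and -0.085). Low reads limit *Sugct* (4 to 59 a library) and *Nid1* (41 to 97).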
